A study of Mus musculus with 12 samples.

Results

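Of 48057 array probes whose names start with ASMM10EP3A, 686 (1.43%) were well above background in the supernatant channel on at least 3 of 6 arrays and in the m6A immunoprecipitation (IP) channel on none. Well above background is a flag that the extraction software sets for each spot and channel, and a probe that carries it is called detected here. These 686 supernatant-only probes were chosen by the background flags of both channels, so their presence in the supernatant and their weakness in the IP are how they were picked and are described here without a test. Kidney RNA came from 6 male mice of the C57BL/6 strain, 6 to 8 weeks old, of which 3 were labelled WT and 3 METTL3 knockout, called cKO in the titles. Both genotypes had been given glyoxylate by intraperitoneal injection for 7 days (100 mg/kg each day, in 200 µl), which leads to calcium oxalate deposits in the kidney, and the saline arm named in the protocol is not analysed here. The labels do not say which cells lost Mettl3 or which promoter drove the deletion. Each RNA was split with a rabbit antibody against N6-methyladenosine (m6A) into the eluted IP, labelled with Cy5, and the unbound supernatant, labelled with Cy3, and both were hybridised together, which gave 12 samples from 6 arrays. The protocol calls the unbound RNA the supernatant, whereas the antibody label of the same samples calls it input; it is treated here as the supernatant.

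As background, m6A is the most common internal mark of messenger RNA. It is written by a complex whose catalytic subunit is Mettl3 and whose partner Mettl14 helps to bind RNA, removed by the demethylases Fto and Alkbh5, and read by proteins of the YTH domain family. An antibody against m6A binds RNA that carries the mark, and RNA with little or no mark stays in the unbound fraction. A transcript found in the supernatant and not in the IP is thus a candidate for weak or absent methylation, provided that its signal is high enough for the comparison.

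None of the 686 probes could be tied to a gene. Each of the 686 was printed as 1 spot, and in the files the systematic name of each of them equals its probe identifier. Across the array, 50 probes carried an accession, 45 of these matched a symbol among RefSeq genes (assembly GRCm38.p6), and none of them was among the 686. For the same reason neither the 37 kidney cell markers listed for a check of the tissue nor Mettl3 could be looked up, and the tissue and genotype labels were not checked against gene levels. No probe sequence was used here, so the supernatant-only probes are described by their signals alone.

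Supernatant-only probes were dim. Background-subtracted intensity, in the scanner's own units, had a median over the 686 probes of 16.3 on WT array 2 and of 17.8, 13.3 and 14.0 on cKO arrays 1 to 3, where values are given in the order of the array numbers here and throughout. On WT arrays 1 and 3 the medians were 8.11 and 6.56. The lowest value was that of WT array 3. The median over all 25859 ASMM10EP3A probes that met the supernatant criterion lay between 20.0 and 65.8 on the 6 arrays. Averaged over the 6 arrays, the dimmest supernatant-only probe had 5.23 and the brightest 101. The 353 spots of negative control probes had median intensities of -2.19 to -1.91 in the supernatant channel, and their share called well above background there was between 0% and 0.283% on each array.

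The IP signal of the supernatant-only probes lay below the detection limit but mostly not at 0. Its median was 3.56, 3.88 and 4.69 on WT arrays 1 to 3, against 4.66, 5.02 and 4.11 on cKO arrays 1 to 3. The lowest IP intensity that counted as well above background lay between 9.61 and 10.9. Probes of the same class that were well above background in neither channel on any array, 14963 in number, had median IP intensities of 0.377 to 1.12, and the negative control spots had medians of -2.25 to -1.73. WT and cKO arrays overlapped in the median IP intensity of the supernatant-only probes.

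Most supernatant-only probes carried a weaker call in the IP. The extraction software also sets a weaker flag, for signals that are positive and significantly above background, and every spot that was well above background carried it too. By that flag, 669 of the 686 supernatant-only probes were above background in the IP on at least 1 array, 243 of them (35.4%) on all 6 arrays, and 17 (2.48%) on none. On a given array between 67.8% and 82.2% of the supernatant-only probes carried the weaker IP flag. The share was 27.9% to 39.3% among probes well above background in neither channel, and 3.4% to 5.95% among negative control spots. Of the 17 probes without the weaker flag in the IP on any array, 3 had a supernatant call on all 6 arrays. Detection in the supernatant alone thus holds for the stronger flag and not for the weaker one, and the 686 are named here by the stronger flag.

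Loss of the IP call was concentrated among the dimmest supernatant signals. Supernatant level is given as log2 processed signal relative to the 75th percentile of all non-control probes on the same array. When the 25859 probes that met the supernatant criterion were divided by mean level into deciles, the dimmest decile held 339 supernatant-only probes, 13.1% of its members and 49.4% of the 686. The next deciles held 151, 98, 45, 30, 18 and 5. None lay in the 3 brightest deciles, where 99.8% to 100% of the probes were well above background in the IP on 3 or more arrays. Even in the dimmest decile 72.1% of the probes had an IP call on 3 or more arrays. Over all 25859 probes, 22133 (85.6%) were well above background in the IP on all 6 arrays.

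Values at the edges of the rule are given as a description. The 229 members well above background in the supernatant on exactly 3 arrays had a median intensity, averaged over 6 arrays, of 9.53, and the 344 probes that missed the rule with exactly 2 arrays had 7.39. Their median IP intensities were 4.57 and 4.34. The 420 probes that met the supernatant criterion but had an IP call on exactly 1 array had a median supernatant intensity of 12.2, against 12.4 for the 686, and their median IP intensity was 7.41, against 4.43 for the 686.

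Detection of the set in the supernatant was lowest on WT arrays 1 and 3. The file headers give 1 scan start for WT arrays 1 and 3 (scan 1) and another for WT array 2 and all 3 cKO arrays (scan 2), taken here as 2 slides. WT array 2 detected 638 of the 686 (93%), and cKO arrays 1 to 3 detected 671, 565 and 632. WT arrays 1 and 3 detected 133 (19.4%) and 121 (17.6%). Among all 25859 probes that met the supernatant criterion the shares on these 2 arrays were 74.8% and 61.7%. The limit itself also differed, with a lowest intensity well above background of 13.7 and 12.9 on WT arrays 1 and 3 and of 9.43 to 9.92 on the scan 2 arrays. When 13.7 was used as the common supernatant limit, 342 probes reached it on 3 or more arrays and met the rule. Of these, 70 reached it on all 6 arrays. This alternative was added once the values had been seen.

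The most frequent pattern, in 287 probes (41.8%), was detection on exactly the 4 scan 2 arrays. A further 118 were detected on WT array 2 and cKO arrays 1 and 3, and 514 of the 686 (74.9%) were detected on neither scan 1 array. Detection on all 6 arrays was seen for 80 probes (11.7%), with a median intensity of 36.8. No WT array detected 43 of the probes (6.27%, beside 2.32% of the 25859), all of which were detected on the 3 cKO arrays. The reverse pattern, all 3 WT arrays and no cKO array, was seen for 0 of the 686 and 0 of the 25859. With scan 2 arrays alone and detection on at least 3 of 4, 843 probes met the rule. Scan, genotype and the supernatant detection limit moved together, and their parts in these counts were not tested.

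For the ratio of IP to supernatant, the set allows only limits. The IP was not well above background on any array, so each ratio has only an upper bound. It was computed per channel after normexp background correction, loess and Aquantile normalisation, with an offset of 50 added to both channels. Averaged over the arrays, the median supernatant intensity of the supernatant-only probes was only 12.4, so this offset draws each ratio towards 1. The closeness of the median bounds to 1 thus reflects the offset as well as the signals. IP values under the dimmest detected IP signal of the array were raised to it (39.8% of the values on WT arrays and 37.4% on cKO arrays). The other IP values, also not well above background, entered unchanged. The bound is therefore nominal and not a guaranteed limit. No array carried the dyes the other way round, so each bound is open to dye bias. Loess sets the typical log ratio of each array near 0 at each intensity. Each bound is thus relative to the typical probe of similar intensity on its array and is not an absolute ratio. In WT, 643 of the probes were detected in the supernatant on 1 or more arrays, and their median bound was a log2 ratio of -0.20, or an IP of at most 0.870 of the supernatant. In cKO all 686 were detected on 1 or more arrays, with a median bound of -0.23, or 0.850. The bound was under 1 for 632 of 643 probes in WT and 684 of 686 in cKO. These counts follow largely from the rule, which required a supernatant call and no IP call. The bound was under 0.5 for 8 and 15 probes. These bounds average all 3 arrays of a genotype, also arrays that did not detect the probe in the supernatant, where the ratio is not bounded. Among probes detected in the supernatant on all 3 arrays of the genotype, the median bound was -0.61 in WT (81 probes) and -0.28 in cKO (497 probes). These medians rest on different sets of probes and do not compare the genotypes.

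For the 80 probes detected in the supernatant on all 6 arrays, the bounds were tighter. These probes were brighter, and with the IP below its limit by the rule, a brighter supernatant gives a lower bound by construction. The median bound of the 80 was a log2 ratio of -0.62 in WT and -0.71 in cKO, or an IP of at most 0.651 and 0.612 of the supernatant, and all 80 lay under 1 in both genotypes. The size of the bound differed with the processing, and no offset was added to the processed signals. From the software's processed signals, with log ratios centred on the median probe of each array, the median bounds of the same 80 probes were 0.221 in WT and 0.204 in cKO, and 80 and 77 of them lay under 0.5. For all detected probes the processed signals gave a log2 median of -0.52 in WT and -0.80 in cKO, with 481 of 643 and 670 of 686 under 1. The bounds of the genotypes were not compared by a test.

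The lowest bounds belonged to the 2 brightest probes of the set, a ranking that largely follows from how the bound was built. By the rule every IP signal lay below its limit, so the bound falls as the supernatant level rises. ASMM10EP3A100247067 had supernatant intensities of 68.7, 142 and 55.7 on WT arrays 1 to 3, against 121, 102 and 107 on cKO arrays 1 to 3. Its IP intensities were 0.931, 1.26 and 3.99 in WT, against 1.12, -0.345 and 1.30 in cKO, close to 0 on 5 of the arrays. Relative to the typical probe of its array, its supernatant was at least 2.73-fold brighter than the IP in WT and 2.83-fold in cKO. From processed signals it was at least 13.5-fold and 13.3-fold brighter, relative to the median probe. ASMM10EP3A100229961, the probe with the highest mean supernatant level, had supernatant intensities of 54.4, 129 and 67.8 in WT, against 137, 104 and 112 in cKO. Its IP intensities were higher on some arrays, at 1.54, 8.49 and 8.61 in WT, against 3.17, 7.37 and 1.60 in cKO. On the same relative scale its supernatant was at least 2.50-fold brighter than the IP in WT and 2.90-fold in cKO. From processed signals, relative to the median probe, it was at least 13.2-fold and 14.3-fold brighter. In supernatant level neither probe differed between the genotypes beyond the spread of the arrays, with cKO minus WT of -0.27 ± 0.22 (SE, adjusted p = 0.757 in limma's test) for the first and -0.12 ± 0.28 (adjusted p = 0.951 in limma's test) for the second.

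The comparison of genotypes asked whether the supernatant signal of these probes differed between cKO and WT kidneys. The test was fitted on all 31174 non-control probes that met the supernatant criterion, and a probe passed at a Benjamini-Hochberg adjusted p under 0.05. In a bulk kidney sample, fewer cells of a type and less RNA per cell cannot be told apart. Of the 686 supernatant-only probes, 1 was higher in cKO (0.146%, beside 0.202% of all probes tested) and 0 were lower (beside 0.0192%) in limma's test, where 0.221% of all probes passed in either direction. At an unadjusted p under 0.05, 56 were higher (8.16%, beside 7.17%) and 13 lower (1.9%, beside 3.12%), while 10.3% of all probes tested reached it in either direction. With a change of at least 1.5-fold required as well, 67 of the 686 met it in either direction (9.77%, beside 8.65%). The 3 cKO values lay above the 3 WT values for 54 probes (7.87%, beside 9.52%) and below them for 22 (3.21%, beside 7.15%). The 43 probes detected on cKO arrays alone entered the set through that genotype, so these counts do not bear on a direction. Of the 43, 41 had a higher mean level in cKO, a direction that this choice favours. Their median difference was 0.81, beside 0.83 for all 661 tested probes detected on exactly the 3 cKO arrays. For 39 of the 43, the cKO supernatant was at least 1.00-fold to 1.19-fold that of WT after normexp, loess and Aquantile. This bound hardly exceeds 1, towards which the offset of 50 draws it.

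The probe past the threshold, named after its values were seen because it was the only call, was ASMM10EP3A119275309, among the 43 detected on cKO arrays alone. Its supernatant intensities were 2.46, 6.55 and 3.55 on WT arrays 1 to 3, against 21.7, 18.0 and 23.1 on cKO arrays 1 to 3. All 3 cKO values lay above all 3 WT values. Its level was -3.54 ± 0.57 in WT and -1.44 ± 0.21 in cKO (SD, n = 3). It entered the set and the tested probes through the cKO arrays alone, so its adjusted p of 0.0485 in limma's test is not evidence of a difference, and with no WT array detected its difference is not a measured fold. After normexp, loess and Aquantile, with the same offset, its supernatant was at least 1.19-fold higher in cKO. The mean log2 levels were 5.94 in WT and 6.25 in cKO. Over the alternatives its adjusted p in limma's test ranged from 0.0437 to 0.867, and it did not pass when any 1 of the 6 arrays was left out (0.0536 to 0.249). Its IP intensity was 0.423, 1.73 and -1.69 in WT, against 8.82, 3.28 and 9.91 in cKO, where all 3 values were higher too, though below the limit on every array.

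Within scan 2, where WT is a lone array, and also without WT array 3, another probe detected on the cKO arrays alone passed instead, with the same limit. ASMM10EP3A106531767, named after its values were seen, had supernatant intensities of 4.17, 4.73 and 6.10 in WT, against 16.7, 13.8 and 16.2 in cKO. The scaled levels of WT array 3 (-1.92) and cKO array 1 (-1.96) overlapped. After normexp, loess and Aquantile, with the same offset, its supernatant was at least 1.1-fold higher in cKO.

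The median difference of the whole set changed sign with the scan and with the normalisation. Over all arrays the median of cKO minus WT was 0.12 for the 686 probes, beside 0.0015 for all probes tested. With the scan as a block or within scan 2, which give the same difference because scan 1 holds WT arrays alone, it was -0.24, beside -0.03. Of the 686, 420 (61.2%, beside 50.2% of all probes tested) had a positive difference over all arrays, and 185 (27%, beside 46.2%) within scan 2. On scan 2 only 1 array was WT, so this difference rests on that array. Scaling to the median in place of the 75th percentile moved all probes tested to -0.24 and the 686 to -0.12, which left the distance between them at 0.12. With normexp and 75th percentile scaling the median of the 686 was -0.18, beside -0.03, with 24 of the 686 above 0. With quantile normalisation it was -0.0055, beside 0.0090. With normexp, loess and Aquantile it was 0.039, beside 0.0045, with 472 of the 686 above 0. Without WT array 1 the median of the 686 was -0.06, and without WT array 2 it was 0.29.

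The 80 probes detected on all 6 arrays were called in both genotypes, but their choice was not free of genotype. Of the supernatant-only probes, 82 were detected on both scan 1 arrays, which are WT, so those arrays nearly decided the choice. The supernatant limits were highest there, at 13.7 and 12.9 on WT arrays 1 and 3. Requiring a call on them favours a high WT signal, so the counts of these 80 do not bear on a direction. Their median levels were -0.75, -0.26 and -0.11 on WT arrays 1 to 3, against -0.49, -0.39 and -0.60 on cKO arrays 1 to 3, so the genotypes overlapped and WT array 1 lay lowest. The median difference was -0.16, beside -0.08 for all 18852 probes detected on all 6 arrays. A positive difference was seen for 13 of the 80 (16.2%), beside 36.8% of the 18852. Within scan 2 it was -0.25 for the 80, beside -0.04. With normexp, loess and Aquantile it was 0.05, with 50 of 80 above 0, so that the sign depended on the normalisation. Without WT array 1 it was -0.40 and without WT array 3 -0.01. In limma's test 0 of the 80 passed, beside 0.127% of all probes detected on all 6 arrays. At an unadjusted p under 0.05, 1 of the 80 was higher in cKO (1.25%, beside 3.3%) and 4 were lower (5%, beside 4%).

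Among these 80, the 2 probes with the smallest p and a lower signal in cKO were ASMM10EP3A129013688 and ASMM10EP3A128507257. The first had levels of 0.73, 0.75 and 0.09 on WT arrays 1 to 3, against -0.62, -0.21 and -0.62 on cKO arrays 1 to 3, with no overlap. Its difference was -1.0 ± 0.25 (SE, adjusted p = 0.195 in limma's test), and -1.23 within scan 2. The second had -0.35, -0.13 and -0.09 in WT, against -1.08, -0.72 and -0.88 in cKO, again with no overlap. Its difference was -0.70 ± 0.20 (adjusted p = 0.253 in limma's test), and -0.77 within scan 2. Neither passed the threshold.

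In the other direction, ASMM10EP3A121971659 had levels of -1.38, -0.44 and -0.74 in WT, against 0.38, 0.21 and 0.03 in cKO, where all 3 values were higher. Its difference was 1.05 ± 0.27 (SE, adjusted p = 0.206 in limma's test), and 0.64 within scan 2. The next, ASMM10EP3A119149420, had -1.21, -0.91 and -0.63 in WT, against -0.46, -0.66 and -0.77 in cKO, and the genotypes overlapped. Its difference was 0.29 ± 0.22 (adjusted p = 0.75 in limma's test). These 2 probes did not pass either.

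Across the 686 probes, which share the same arrays, Pearson's r of the log2 supernatant level between pairs of arrays ranged from 0.62 to 0.76 (15 pairs). For the IP intensity, on a linear scale and below the detection limit by the rule, it ranged from 0.30 to 0.42, and across the 14963 probes detected in neither channel from 0.43 to 0.51. Supernatant and IP intensities of the 686 on the same array correlated between -0.05 and 0.03. The rule restricts the range of both channels, so this r does not show whether they are related. On the array surface the probes were spread much like their class, with 23.8% to 25.9% in each of 4 equal bands of rows and 21.6% to 26.7% in each of 4 equal bands of columns, beside 24.8% to 25.1% for the class.

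The reverse set, detected in the IP on at least 3 arrays and in the supernatant on none, held 1529 probes of the same class (3.18%), more than the 686. Its probes had a median IP intensity of 14.5, averaged over 6 arrays, and a median supernatant intensity of 3.32, so that this set too lay close to the detection limits. On scan 2 arrays alone, with at least 3 of 4 arrays, the reverse set held 1167 probes and the supernatant-only set 843.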

How the data were processed

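The deposited intensity values are linear scanner intensities made with Feature Extraction (Agilent, 11.0.1.1, per the submitters' processing notes); per the file headers they include background-subtracted signals, dye-normalised processed signals and background flags. R (4.3.3) was used, with the packages limma (3.58.1) and data.table (1.17.8). Members, named probes and tests were chosen with earlier results of these data known. Named were, among members detected on all 6 arrays, the 2 with the smallest p in each direction, and, among all members, the 2 lowest bounds and the highest mean supernatant level; 2 further probes are marked as chosen after their values were seen. No array was a copy of another, and the precision is limited by 3 arrays per genotype. Supernatant log2 processed signals minus the 75th percentile of the array were fitted with lmFit and eBayes (two-sided, Benjamini-Hochberg adjusted). The fit covered all non-control probes detected in the supernatant on at least 3 arrays. It was also run on simulated data with known changes. Those data held no scan effect and no detection limits, so the run does not bear on either. A probe with 10 spots counted as detected if at least 0.5 of them were. Upper bounds used median spot and local background intensities with a normexp offset of 50. Alternatives covered the detection rule, normalisation, filter, variance model, replicate and scan blocks and each array left out.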

Additional observations from a re-analysis of the deposited data

How the results depend on the processing

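The number of supernatant-only probes, 686, was 1030 with at least 2 supernatant arrays, 457 with 4 and 80 with all 6, 1106 with an IP call allowed on 1 array, 17 without the weaker IP flag and 342 with the common limit; without 1 array it ranged from 526 to 786, and it was 686 with outlier spots not counted. The median log2 bound, -0.20 in WT and -0.23 in cKO, was -0.52 and -0.80 from processed signals, -0.45 and -0.30 with normexp and 75th percentile scaling, -0.46 and -0.61 from background-subtracted signals, -0.059 and -0.088 with the floor at the 5th percentile, and -0.62 and -0.71 for probes on all 6 arrays; on the WT array of scan 2 it was -0.28. Of the members, 1 passed the genotype threshold. The count was 0 with normexp, with normexp, loess and Aquantile, and with quantile normalisation. It was also 0 with the filter on all 6 arrays or no filter, and with trend and robust variance. The same held when the scan was a block and among members on all 6 arrays. Without 1 array the count was 0 to 1. At an unadjusted p under 0.05 with a 1.5-fold change, 67 passed (9.77%, beside 8.65% of all probes tested). Over all probes tested, 69 passed; the count was 23 with normexp, 22 with normexp, loess and Aquantile, 16 with no filter, 159 with trend and robust variance, 1 when the slide was a block and 158 on slide 2 alone, and without 1 array it ranged from 0 to 100. With the replicate number as a block 0 members and 0 probes in all passed; same-numbered WT and cKO arrays did not deviate together (r = -0.11, 0.17 and -0.10), so the numbers are not taken as pairs. Differences changed sign for ASMM10EP3A100229961 with normexp (0.070), with normexp, loess and Aquantile (0.12) and without WT array 3 (0.13; without 1 array it ranged from -0.38 to 0.13), and for ASMM10EP3A100247067 with normexp, loess and Aquantile (0.030). Causes were not tested. Signals near background limit all of these values.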

Other observations

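Other probe classes of the array also held probes that met the same rule. Of the 4087 probes whose names start with ASMM10SM1, 181 (4.43%) met it, 9.4% of the 1926 that met the supernatant criterion, beside 2.65% of the ASMM10EP3A probes. Of these 181, 55 were detected in the supernatant on all 6 arrays. Their median bound over all arrays from processed signals was a log2 ratio of -1.06 and their median difference of cKO minus WT -0.07. The ASMM10EP3B class had 102 such probes of 8497 (1.2%), with 10 detected on all 6 arrays. Among the 50 probes with an accession, 1 met the rule, and it had no symbol in the gene table. The meaning of the class names is not given in the sources used here.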
